A study of Mus musculus with 12 samples.

Results

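The comparison of Foxo3 knockout with control livers in the fasted state takes in 6 liver libraries of the 12 in the series, chosen by their genotype and treatment labels, with 3 knockout and 3 control mice. All 12 mice were males of 16 to 18 months on an ad libitum diet. The controls had floxed Foxo3 and were Cre-negative. Knockout mice carried Foxo3 flox/flox with Alb-cre, a Cre under the albumin promoter that acts in hepatocytes, so the remaining liver cells keep the gene. The fasted mice of both genotypes had an overnight fast, and the 3 control and 3 knockout mice that were fed serve here only to show where the fasted groups stand. Poly(A) RNA of whole frozen liver was sequenced, and the labels name no batch, litter or day. Differences between genotypes are therefore also differences between any cohorts the groups came from, and both cannot be told apart.

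Foxo3 is a forkhead transcription factor of the FoxO family. In the fed state insulin signalling leads to phosphorylation of FoxO proteins by Akt and keeps them out of the nucleus. In fasting, when insulin is low, they enter the nucleus and bind short motifs near genes of gluconeogenesis, insulin signalling, growth arrest and autophagy. The fasted liver is thus a state in which FoxO factors are active.

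Counts were summed per gene by the authors, and 15862 of 55487 annotated genes had enough of them to be tested. The fasted libraries held between 18420882 and 22414976 counts. Each level is a CPM value, the count per 1000000 counts of a library after scaling by the normalisation factors of edgeR. Differences are log2 values of knockout over control with their standard error (SE), and p-values come from the quasi-likelihood test of edgeR, with Benjamini-Hochberg adjustment over the 15862 genes and a threshold of 0.05. Hepatocyte markers summed to between 84250 and 137971 CPM in the fasted libraries, so all 6 carry the signature of liver tissue. Fasted control replicate 3 stood apart on the first principal component of the 6 fasted libraries (28.9% of the variance), at -44.1 against -12.7 to 31.5 in the others, and it carried high antibody gene levels that are described with the immune markers. The labels do not say whether any animals shared a litter or a day. The p-values treat the libraries as independent and measure their spread within groups, estimated over all 12 libraries.

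Foxo3 (ENSMUSG00000048756, chromosome 10, positions 42181841 to 42276755, build mm10) was not lower in the libraries labelled knockout. Fasted controls stood at 44.3, 39.9 and 38.1 CPM and fasted knockouts at 46.6, 53.6 and 53.4 CPM. Every knockout library was above every control library, with a log2 difference of 0.33 (SE 0.093) that missed the threshold (adjusted p = 0.45, edgeR). The fed groups were separated in the same direction, at 45.5, 44.5 and 50.4 CPM in controls and 59.4, 58.8 and 62.2 CPM in knockouts. The fed difference was 0.36 (SE 0.093, adjusted p = 0.68, edgeR). Which exons are floxed is not given in the labels, and reads from exons that stay in place count for the gene, so its count does not check the genotype. "Knockout" is used below for the libraries labelled so. Among the 49 tested genes within 5 Mb of Foxo3, 0 passed the threshold, and their median log2 difference was 0.02. The 3 named genes there with the smallest p besides a Tdg pseudogene were Pdss2, an enzyme of coenzyme Q synthesis (0.34, SE 0.11), Sec63 of the endoplasmic reticulum translocon (0.25, SE 0.1) and Mfsd4b4 (-0.36, SE 0.16).

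Among the paralogs, no difference was detected in Foxo1 and Foxo4 at this depth. Foxo6 had too few counts to be tested, with no more than 0.142 CPM in any library. Foxo1 stood at 53.3, 56.7 and 68.6 CPM in fasted controls and at 49.1, 71.5 and 63.7 CPM in fasted knockouts (log2 difference 0.05, SE 0.14, adjusted p = 0.94, edgeR). Foxo4 was at 28.7, 29.9 and 22.1 CPM in controls and 22.5, 27.6 and 29.2 CPM in knockouts (-0.03, SE 0.14, adjusted p = 0.97, edgeR). The groups overlapped for both genes. The signs of both values turned when single fasted libraries were left out.

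In fasted livers 5 of the 15862 tested genes passed the threshold, which is 0.0315% of the genes. In knockout 4 were higher (0.0252%) and 1 was lower (0.0063%). The higher genes were Rpl29, which encodes a protein of the large ribosomal subunit, its pseudogenes Gm6344 and Gm10709, and Acpp, which encodes an acid phosphatase. The lower gene was Tdg, which encodes thymine DNA glycosylase, a base excision repair enzyme that also acts in active DNA demethylation. Without fasted control replicate 3 only Rpl29 passed, and with each other library left out between 3 and 6 genes did. At an unadjusted p under 0.05, 1429 genes (9.01%) passed in fasted livers and 970 (6.12%) in fed livers. With adjustment, 0 genes (0.0%) passed in fed livers by edgeR and 33 by DESeq2.

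Rpl29 (ENSMUSG00000048758, chromosome 9, positions 106429454 to 106431568) showed a wide gap between the groups. Fasted controls stood at 4.10, 6.0 and 3.29 CPM, and fasted knockouts at 84.9, 76.5 and 48.2 CPM. The fed libraries of both genotypes lay between 76.3 and 98.6 CPM, so the 3 fasted controls were the low group and the fasted knockouts resembled fed livers, with replicate 3 somewhat below. The log2 difference was 3.98 (SE 0.25, adjusted p = 3.6e-05, edgeR), a 15.8-fold difference, against 0.01 in fed livers. Rpl29 passed the threshold in every alternative fit that was run. It was also the single gene of 15862 (0.0063%) whose genotype difference differed between fasted and fed livers past the threshold in the interaction test of edgeR (adjusted p = 0.00064).

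Rpl29 has many processed copies in the mouse genome, and their counts are uncertain because short reads can match several of them. In the GENCODE vM21 transcripts, 61 other genes hold at least 300 bases that match the Rpl29 coding sequence at 90% identity or more, and 10 of them had enough counts to be tested. The stretch below covers coding bases 181 to 300 of Rpl29, the 120 bases in which the copies shown differ most, and capitals mark the bases in which a copy differs from Rpl29. It is shown because so few bases separate these copies from the gene. Gm6344 differs from Rpl29 at 3 and Gm10709 at 4 of 480 coding bases in all.

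Rpl29: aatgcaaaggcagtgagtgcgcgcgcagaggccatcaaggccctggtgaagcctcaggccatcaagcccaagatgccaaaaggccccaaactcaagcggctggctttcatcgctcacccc
Gm10709: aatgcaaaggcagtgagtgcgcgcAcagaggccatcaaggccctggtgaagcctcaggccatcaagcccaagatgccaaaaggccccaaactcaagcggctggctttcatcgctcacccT
Gm6344: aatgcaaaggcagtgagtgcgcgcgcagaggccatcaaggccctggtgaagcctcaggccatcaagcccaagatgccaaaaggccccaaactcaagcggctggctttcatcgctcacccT
Gm5561: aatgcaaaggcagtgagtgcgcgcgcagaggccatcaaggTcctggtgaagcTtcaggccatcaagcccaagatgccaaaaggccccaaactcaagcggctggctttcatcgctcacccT

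The 2 called pseudogenes followed Rpl29 in every group. Gm6344, on chromosome 13 (positions 55085777 to 55086259), was at 0.0494, 0.735 and 0.338 CPM in fasted controls and at 7.65, 7.41 and 3.57 CPM in fasted knockouts (log2 difference 4.09, SE 0.5, adjusted p = 0.014, edgeR). Gm10709, on chromosome 9 (positions 7751725 to 7752204), was at 0.593, 0.962 and 0.675 CPM in fasted controls and at 3.14, 3.06 and 2.76 CPM in fasted knockouts (2.01, SE 0.3, adjusted p = 0.040, edgeR). In fed livers Gm6344 lay between 5.27 and 7.47 CPM and Gm10709 between 2.05 and 4.07 CPM. Gm5561, a copy on chromosome 1, had 0 counts in all 3 fasted controls and 10, 14 and 5 counts in the fasted knockouts, which makes it at least 9.3-fold higher when the controls are set to a floor of 3 counts over the group. It missed the threshold (adjusted p = 0.12, edgeR). So 3 of the 5 called genes are Rpl29 and copies of it that differ at 4 or fewer of 480 bases, and they cannot be counted as independent findings.

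Other copies did not follow the gene. Gm13841, which differs from Rpl29 at 3 bases, stood at 9.54, 14.4 and 8.61 CPM in fasted controls and at 6.19, 6.25 and 11.1 CPM in fasted knockouts. Gm8210 stood at 2.62, 3.45 and 2.45 CPM in fasted controls, at 0.398, 0.719 and 2.25 CPM in fasted knockouts, and at no more than 0.712 CPM in any fed library. In both copies fasted knockout replicate 3, in which Rpl29 was lowest of the knockouts, was the highest knockout library. It lay within the control range in Gm13841 and below it in Gm8210. Summed over Rpl29 and the 61 matching genes, the level was 38.3, 48.9 and 40.0 CPM in fasted controls, 133, 125 and 92.7 CPM in fasted knockouts and 120 to 146 CPM in fed livers. These sums include all counts of Uimc1, which matches only through a retained-intron transcript on the opposite strand. Uimc1 alone stood at 17.5, 19.9 and 19.7 CPM in fasted controls and at 27.0, 26.4 and 21.2 CPM in fasted knockouts. The sums therefore overstate the level of Rpl29 and its copies. The fasted groups did not overlap in the sum either. The ratio between them was much smaller than for Rpl29 alone, in part because Uimc1 adds to both groups. What the assignment of reads between copies adds to the single values was not tested.

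Acpp (ENSMUSG00000032561, chromosome 9, positions 104288251 to 104337748) had 3, 2 and 7 counts in the fasted controls and 272, 309 and 79 counts in the fasted knockouts. These are 0.148, 0.113 and 0.295 CPM against 12, 13.9 and 4.55 CPM, with fasted knockout replicate 3 again the lowest of its group. Fed controls lay between 8.85 and 18.8 CPM and fed knockouts between 19.9 and 24.1 CPM. The log2 difference in fasted livers was 5.68 (SE 0.59, adjusted p = 0.011, edgeR), and the fold, 51.2, rests on 12 control counts in all. Acpp lost its call when any 1 fasted control was left out (adjusted p between 0.076 and 0.12, edgeR), although the direction held.

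Tdg (ENSMUSG00000034674, chromosome 10, positions 82629828 to 82650799) stood at 8.16, 7.18 and 13.5 CPM in fasted controls and at 3.80, 2.16 and 2.88 CPM in fasted knockouts. All 6 fed libraries lay between 11.8 and 12.6 CPM. The fasted knockouts were the lowest group for this gene, but fasted control replicates 1 and 2 were also below every fed library. The log2 difference was -1.71 (SE 0.24, adjusted p = 0.031, edgeR), or -1.38 without fasted control replicate 3. The call was lost in most fits with 1 library left out, with adjusted p of up to 0.13, while the sign stayed. Tdg also has a near-identical copy, the processed pseudogene Tdg-ps2, which lies 0.13 Mb from Foxo3 on chromosome 10 (positions 42054113 to 42055306). Coding bases 982 to 1101, the 120 bases in which the pair differs most, show how few bases separate reads of the gene from reads of the copy, with the differing bases of the copy in capitals.

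Tdg: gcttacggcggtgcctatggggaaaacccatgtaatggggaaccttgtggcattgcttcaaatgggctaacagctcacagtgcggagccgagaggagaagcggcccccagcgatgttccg
Tdg-ps2: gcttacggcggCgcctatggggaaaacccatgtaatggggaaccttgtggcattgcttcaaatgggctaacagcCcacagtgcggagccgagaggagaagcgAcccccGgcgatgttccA

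The copy showed the opposite order. Tdg-ps2 was at 2.82, 3.05 and 0.633 CPM in fasted controls, at 5.93, 4.72 and 5.99 CPM in fasted knockouts and at no more than 0.431 CPM in any fed library. Fasted control replicate 3, the highest control in Tdg, was the lowest in Tdg-ps2. The log2 difference of the copy was 1.37 (SE 0.43, adjusted p = 0.49, edgeR). Summed over Tdg and its 3 copies, fasted controls stood at 11, 10.4 and 14.2 CPM and fasted knockouts at 9.77, 7.19 and 9.16 CPM. The groups still did not overlap in the sum, but the gap was much narrower than for Tdg alone, and fed livers lay between 12.3 and 13.1 CPM.

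**Figure D1:**
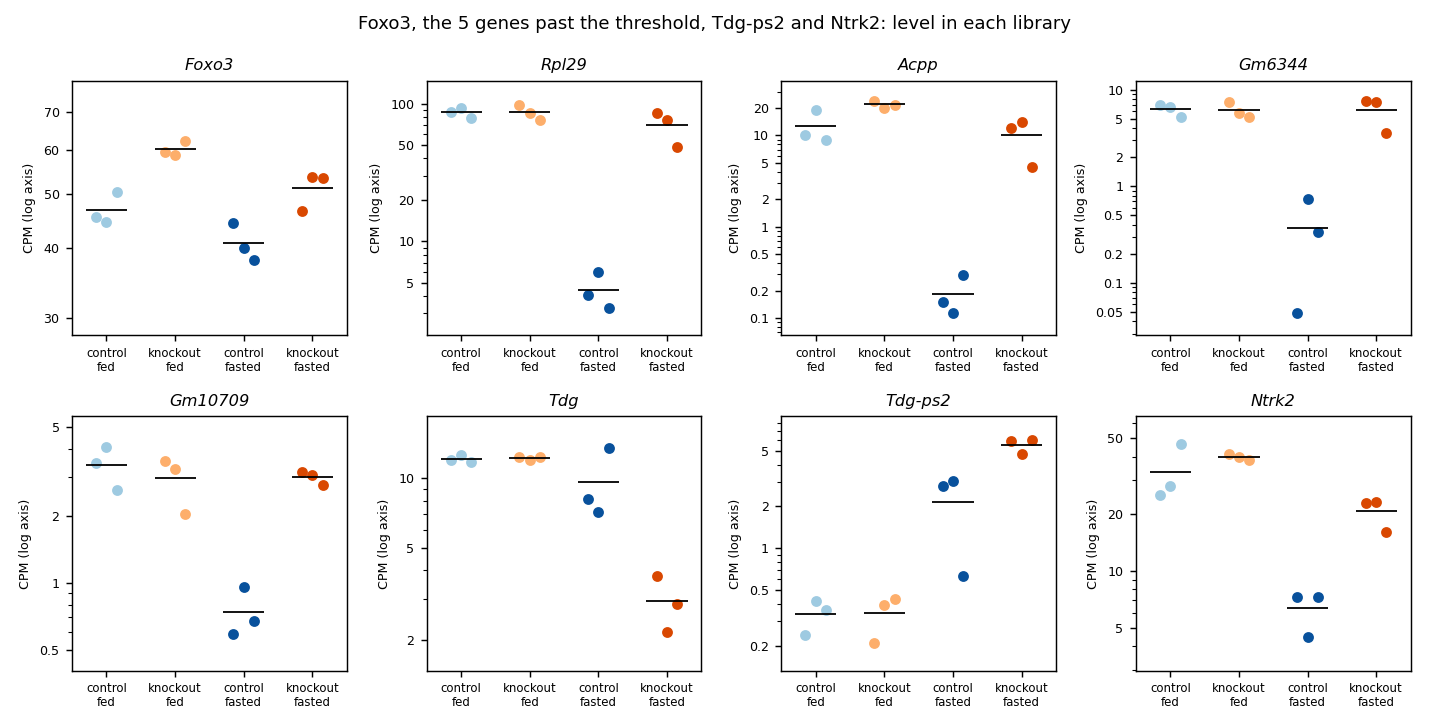
Level in CPM (log axis) of Foxo3, the 5 genes past the threshold, Tdg-ps2 and Ntrk2 in each of the 12 libraries; points are libraries in replicate order and bars are group means (n = 3). Rpl29, Gm6344, Gm10709 and Acpp are low in the 3 fasted controls and not in the other 9 libraries. Tdg is lowest in the 3 fasted knockouts, and Tdg-ps2 is higher in every fasted library than in any fed one.

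The lowest coordinates of Rpl29 and Acpp lie 2.14 Mb apart on chromosome 9. That chromosome held 10 of the 42 genes (0.265% of those tested) with an unadjusted p under 0.001 in fasted livers, out of 889 tested there. Chromosome 7, which came next, held 6 of 1232. Between 100 and 110 Mb, a window chosen after the values were seen, 6 of 132 tested genes (4.55%) had such a p, against 36 of the other 15730 (0.229%). In fed livers 0 of the 132 did. These counts describe neighbours that need not be independent of each other.

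The 6 genes of the window differed in direction. Besides Rpl29 and Acpp, the antisense gene Gm28959 was higher in knockouts, at 70.6, 78.2 and 64.0 CPM in fasted controls and 124, 131 and 96.3 CPM in fasted knockouts (log2 difference 0.72, SE 0.14). It overlaps Abhd14b on the opposite strand, and because the strand setting of the counting is not given in the sources used here, reads of the pair may not be told apart. Nudt16, which encodes a nucleotide and cap hydrolase, was lower, at 10.2, 10.4 and 12.9 CPM in controls and 6.15, 6.60 and 5.70 CPM in knockouts (-0.86, SE 0.18). Dusp7, a phosphatase of ERK kinases, was at 10.3, 9.33 and 7.47 CPM in controls and 4.29, 3.95 and 5.99 CPM in knockouts (-0.93, SE 0.2). The provisional gene A930036K24Rik was at 6.43, 3.34 and 4.09 CPM in controls and 0.752, 1.17 and 1.55 CPM in knockouts (-2.01, SE 0.39). None of these 4 passed the threshold, with adjusted p between 0.19 and 0.31 (edgeR). Over the window, 21 genes were higher and 11 lower in knockout with no overlap between the 3 control and 3 knockout libraries, a measure that 6.82% of all tested genes met as higher and 7.2% as lower.

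**Figure D2:**
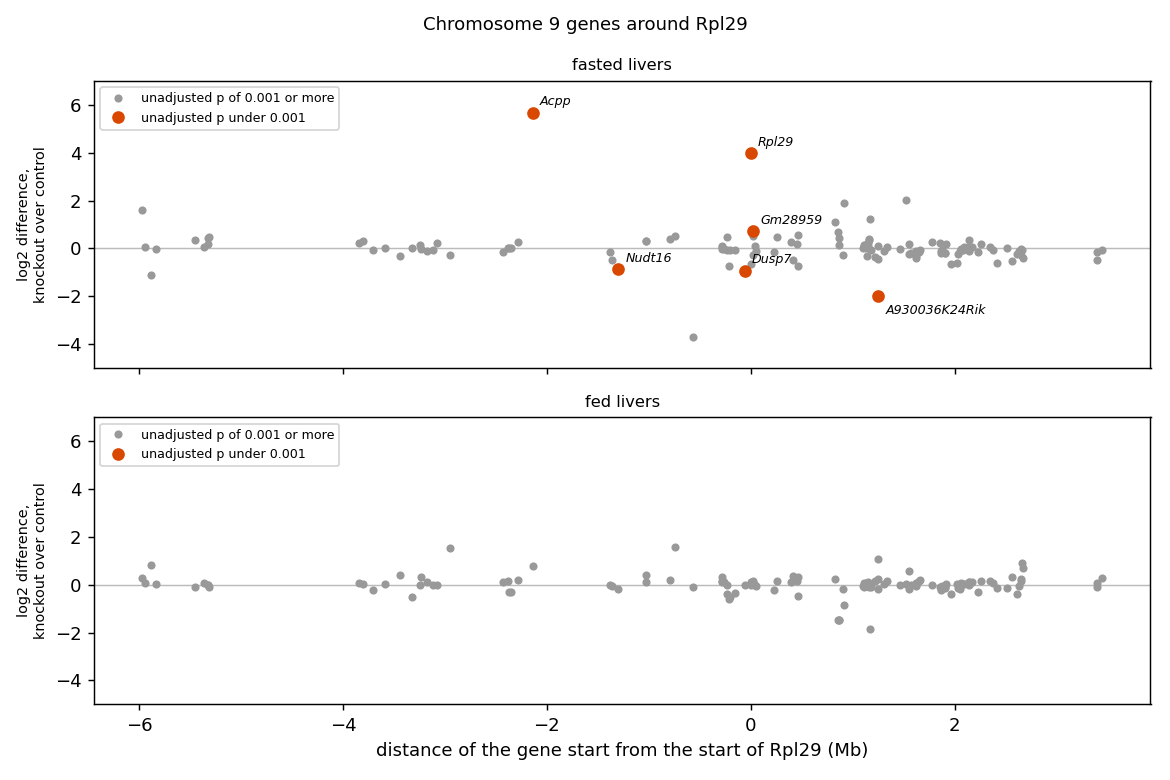
Log2 difference of knockout over control for the 132 tested chromosome 9 genes between 100 and 110 Mb, in fasted and in fed livers. The horizontal axis is the distance from Rpl29 (Mb), where the start of a gene is its lowest coordinate on either strand. The 6 orange genes, with an unadjusted p under 0.001, appear in the fasted panel only, 3 above and 3 below 0.

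Beyond the called genes, the largest differences were filled in by the smallest unadjusted p among genes with a mean of at least 1 CPM and no overlap between the fasted groups, and none of those named next passed the threshold. On the higher side, Ntrk2, the receptor of brain-derived neurotrophic factor, came closest. It stood at 7.27, 4.47 and 7.30 CPM in fasted controls and at 22.7, 23.2 and 16.1 CPM in fasted knockouts (log2 difference 1.70, SE 0.25, adjusted p = 0.079, edgeR). Its fed libraries lay higher still, between 25.0 and 46.4 CPM. Ntrk2 passed with DESeq2 and, with edgeR, when fed control replicate 3 was left out, a shift whose cause was not tested.

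The other higher genes included a kinase and a membrane transporter. Prkce, the protein kinase C isoform linked to lipid-induced insulin resistance in liver, was at 20.1, 17.6 and 16.1 CPM in fasted controls and 24.2, 26.1 and 26.7 CPM in fasted knockouts (0.52, SE 0.094). The zinc transporter Slc30a4 was at 11.7, 11.7 and 10.7 CPM against 15.3, 16.9 and 17.0 CPM (0.53, SE 0.11). For Prkce all fed libraries lay between 25.0 and 26.8 CPM, so the fasted controls were again the group set apart.

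Zbtb20, a transcription factor of the hepatocyte that represses alpha-fetoprotein, stood at 96.6, 82.9 and 87.8 CPM in fasted controls and at 116, 133 and 120 CPM in fasted knockouts (0.47, SE 0.1). Tenm3, a transmembrane teneurin, was at 29.4, 23.6 and 17.3 CPM against 46.9, 47.6 and 40.5 CPM (0.94, SE 0.2). In Tenm3 the fasted knockouts were above all 9 other libraries. This set also held Igsf23 (1.77), Dct (1.45), Sntg2 (1.01), Arhgap24 (0.83), Arhgap32 (0.57), Zfhx4 (0.52) and Glod4 (0.32), all as log2 differences. Their adjusted p ran from 0.12 to 0.35 (edgeR).

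On the lower side, Lgals4, which encodes galectin 4, a lectin of epithelial cells, came closest to the threshold. It was at 26.7, 42.2 and 44.6 CPM in fasted controls and at 17.9, 19.0 and 18.6 CPM in fasted knockouts (log2 difference -1.03, SE 0.17, adjusted p = 0.10, edgeR). Fed livers were lower than both, between 5.96 and 10.1 CPM. Lgals4 passed the threshold without fasted control replicate 1, the lowest control.

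Metabolic genes made up part of this side. Slc25a22, a mitochondrial glutamate carrier, stood at 244, 283 and 296 CPM in fasted controls and at 159, 162 and 203 CPM in fasted knockouts (-0.65, SE 0.11). Aprt, the enzyme that salvages adenine, was at 23.3, 29.4 and 32.4 CPM against 16.7, 18.2 and 18.8 CPM (-0.66, SE 0.12). Apoc4, an apolipoprotein of triglyceride-rich particles, was at 289, 368 and 347 CPM against 233, 229 and 228 CPM (-0.54, SE 0.13). In all 3 genes the fasted controls were the high group, and the mean of the fasted knockouts was nearer to the fed libraries.

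Regulators formed another part. Ccnd3, encoding cyclin D3, which drives entry into S phase with its kinases, stood at 38.2, 37.1 and 41.1 CPM in fasted controls and at 24.2, 27.9 and 28.4 CPM in fasted knockouts (-0.53, SE 0.1). The cold-inducible RNA-binding protein gene Rbm3 was at 43.5, 43.7 and 48.6 CPM against 37.9, 31.3 and 32.0 CPM (-0.42, SE 0.1). Crlf2, the receptor chain for thymic stromal lymphopoietin, was at 11.3, 7.98 and 10.4 CPM against 4.02, 5.44 and 5.64 CPM (-0.98, SE 0.2). The others were Fcho1 (-2.24), Dact2 (-0.78), Tmem25 (-0.64), Ypel3 (-0.54) and Mbd6 (-0.41). Adjusted p of the 14 uncalled lower genes, Nudt16 and Dusp7 among them, ran from 0.10 to 0.38 (edgeR).

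Among the 15 higher and 15 lower genes that this rule selects, the called genes with an established symbol included, the fasted controls more often stood apart than the fasted knockouts. All 3 fasted controls lay outside the range of the other 9 libraries in 11 of the 15 higher and 9 of the 15 lower genes. All 3 fasted knockouts did so in 2 and 4. Over all 15862 tested genes these shares were 4.12% for fasted controls and 1.47% for fasted knockouts. The knockout mean was nearer to the mean of the fed libraries than the control mean was in 13 of the 15 higher and 11 of the 15 lower genes. These genes were selected on the fasted difference, so the counts describe them and test nothing.

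**Figure D3:**
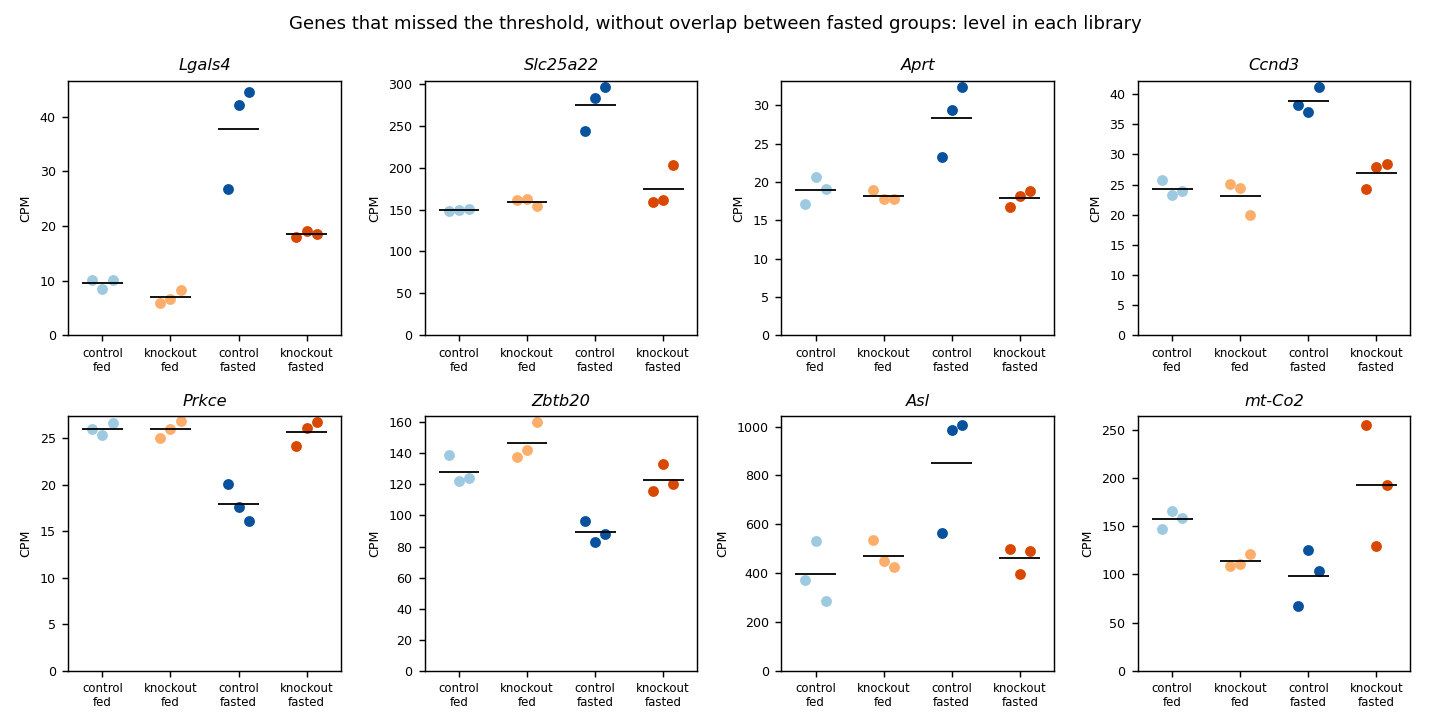
Level in CPM (linear axis from 0) of 8 genes that missed the threshold and did not overlap between the fasted groups; points are the 12 libraries in replicate order and bars are group means (n = 3). In Slc25a22, Aprt, Ccnd3, Prkce and Asl the 3 fasted controls are the group apart and the fasted knockouts lie nearer to fed livers, while Lgals4 in fasted knockouts stays between the 2.

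The genotype difference in fed livers shares no library with the fasted comparison. Of 1082 genes that were higher without overlap in fasted knockouts (6.82% of those tested), 90 were so in fed knockouts too, 8.32% of the fasted and 9.0% of the fed genes, where 6.3% of all tested genes were higher in fed knockouts. Of 1142 that were lower, 58 were, 5.08% of the fasted and 6.11% of the fed genes, where 5.99% of all tested genes were lower in fed knockouts. The shared part was thus somewhat above the share over all tested genes for higher genes and somewhat below it for lower genes. In 125 of the 15862 tested genes the groups were separated in opposite directions, a count for which no background share was computed. Across the 15862 genes, which are not independent replicates, the 2 differences had a Pearson r of -0.068 and a Spearman rho of 0.023, given as a description. Arhgap32 was one of the few named genes with the same separation in both states, at 13.8, 13.3 and 14.2 CPM in fed controls and 18.7, 17.9 and 17.7 CPM in fed knockouts.

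None of the tested genes known as FoxO targets passed the threshold in fasted livers. Of 31 listed, 29 were tested and 0 passed. Their median log2 difference was -0.0016, against -0.01 for all tested genes. Without overlap 3 (10.3%) were higher and 2 (6.9%) lower, beside 6.82% and 7.2% of all tested genes. Gadd45a, a growth arrest and DNA damage gene, stood at 2.67, 3.22 and 3.42 CPM in fasted controls and at 6.90, 5.66 and 3.63 CPM in fasted knockouts (0.80, SE 0.25). Its relative Gadd45b went the other way, at 1.88, 6.51 and 5.53 CPM against 0.885, 1.66 and 1.84 CPM (-1.67, SE 0.56). Insr, the insulin receptor gene, was at 192, 175 and 178 CPM against 193, 227 and 223 CPM (0.24, SE 0.11). Pnpla2, the adipose triglyceride lipase gene, was at 132, 145 and 125 CPM against 97.0, 110 and 132 CPM (-0.24, SE 0.11), and its groups overlapped. Adjusted p of these 4 genes lay between 0.49 and 0.55 (edgeR).

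Promoter sequences from RefSeq (build GRCm38.p6, 250 bases before to 50 after the start) were matched for 11096 of the tested genes and searched on both strands for 2 motifs that FoxO factors are known to bind. These were GTAAACA, the core of the FoxO consensus, and CAAAACA, the core of the insulin response element; no stretch of 7 bases can match both. GTAAACA occurred in 3.29% of these promoters, in 3.41% of those of genes higher without overlap in fasted knockouts and in 4.3% of those of genes lower. CAAAACA occurred in 5.54%, 4.59% and 5.61%. Of the 26 FoxO targets with a promoter, 3 held GTAAACA and 4 held CAAAACA. Among the named genes, GTAAACA was in the promoters of Ccnd3 and Ypel3 and CAAAACA in that of Nudt16. Of the FoxO targets that hold a motif before the start, 3 are shown beside Ccnd3, chosen after the search, with the motif in capitals as read on the plus strand, where TGTTTAC and TGTTTTG are the reverse complements of the 2 motifs.

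Igfbp1, chr11:7197649-7197715, plus strand: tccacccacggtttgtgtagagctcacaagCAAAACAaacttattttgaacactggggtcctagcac
G6pc, chr11:101367512-101367578, plus strand: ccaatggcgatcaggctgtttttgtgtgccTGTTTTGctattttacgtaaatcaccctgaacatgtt
Txnip, chr3:96557806-96557872, plus strand: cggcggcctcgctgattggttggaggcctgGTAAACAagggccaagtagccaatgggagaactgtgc
Ccnd3, chr17:47504801-47504844, plus strand: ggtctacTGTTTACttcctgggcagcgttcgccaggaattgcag

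The 3 FoxO targets with these motifs overlapped between the fasted groups. Igfbp1, an insulin-suppressed binding protein of insulin-like growth factors, stood at 23.6, 24.4 and 31.1 CPM in fasted controls and at 33.2, 45.1 and 19.1 CPM in fasted knockouts (0.30, SE 0.62). G6pc, the catalytic subunit of glucose-6-phosphatase, was at 158, 285 and 258 CPM against 384, 195 and 133 CPM (0.02, SE 0.43). Txnip, a brake on thioredoxin and glucose uptake, was at 122, 166 and 132 CPM against 71.7, 94.8 and 162 CPM (-0.36, SE 0.24). The wide spread of G6pc within the knockouts means that a difference of ordinary size would not have been detectable in this gene. Ccnd3 was named because its fasted groups did not overlap, and the promoters shown were picked after the search. Setting Ccnd3 beside the 3 targets therefore shows nothing about the motifs. A match is also no evidence of binding.

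Insulin signalling genes showed a similar mixture, with 0 of 18 past the threshold and a median of 0.06, or -0.01 without fasted control replicate 3. Mtor, the growth kinase, was at 70.2, 67.3 and 59.4 CPM in fasted controls and 76.4, 78.1 and 78.4 CPM in fasted knockouts (0.24, SE 0.1). Igf1r, the receptor of insulin-like growth factor 1, stood at 3.81, 3.73 and 5.02 CPM against 2.52, 3.28 and 2.30 CPM (-0.63, SE 0.28). The kinase gene Gsk3b had a log2 difference of 0.24 (SE 0.11) with overlap. Of 25 genes of AMPK, mTORC1 and NAD metabolism, 0 passed the threshold, 6 (24%) were higher and 3 (12%) lower without overlap, beside 6.82% and 7.2% of all tested genes, and the median was -0.02.

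Of 15 gluconeogenic genes tested, 0 passed the threshold and 10 had a difference below 0, as did 8261 of all 15862 tested genes. Without overlap 4 (26.7%) were lower and 0 higher, beside 7.2% and 6.82% of all tested genes. The median was -0.19, or -0.11 without fasted control replicate 3. Pck2, the mitochondrial phosphoenolpyruvate carboxykinase, stood at 4.65, 4.19 and 4.35 CPM in fasted controls and at 2.83, 2.88 and 2.19 CPM in fasted knockouts (-0.73, SE 0.22, adjusted p = 0.47, edgeR). Sds, serine dehydratase, was at 191, 185 and 377 CPM against 164, 157 and 145 CPM (-0.69, SE 0.35), which became -0.28 without fasted control replicate 3. Fbp1, fructose bisphosphatase, had a log2 difference of -0.23 (SE 0.12) without overlap, and the aminotransferase gene Got1 one of -0.52 (SE 0.29) with overlap. Fed livers gave a median of -0.01 for the same genes.

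Among the metabolic lists, the urea cycle and amino acid breakdown genes had the largest share lower without overlap. Their summed level was 27815, 39781 and 38813 CPM in fasted controls and 31333, 25326 and 29334 CPM in fasted knockouts, so the groups overlapped in the sum. Members of a list are not replicates of each other. Of 26 tested, 0 passed the threshold, 24 had a difference below 0, and 8 (30.8%) were lower without overlap, beside 7.2% of all tested genes. The median was -0.25 in fasted and 0.28 in fed livers, and it ranged from -0.27 to -0.22 over the alternatives run for the lists. Asl, argininosuccinate lyase, stood at 563, 988 and 1006 CPM in fasted controls and at 497, 398 and 492 CPM in fasted knockouts (-0.88, SE 0.25, adjusted p = 0.45, edgeR). Sdsl, a serine dehydratase relative, was at 10, 15.4 and 14.6 CPM against 6.81, 8.13 and 8.52 CPM (-0.77, SE 0.3). Cth, the last enzyme of transsulfuration, was at 434, 666 and 650 CPM against 408, 244 and 455 CPM (-0.66, SE 0.25), with 1 knockout library inside the control range. Mat1a, which makes S-adenosylmethionine in liver, had a log2 difference of -0.36 (SE 0.14). The members separated without overlap also included Arg1, Slc25a15, Tat, Sds and Gnmt. Tat and Sds count in the gluconeogenic list too.

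Glycogen, glycolysis and fatty acid synthesis genes had medians of 0.18, 0.03 and 0.08, with 0 genes past the threshold. Gbe1, the glycogen branching enzyme, stood at 85.5, 116 and 83.7 CPM in fasted controls and at 161, 121 and 138 CPM in fasted knockouts (0.56, SE 0.18). Ppp1r3c, a glycogen targeting subunit of protein phosphatase, had a log2 difference of 0.36 (SE 0.16) and the phosphorylase kinase subunit gene Phkg2 one of -0.34 (SE 0.09). Among 20 fatty acid synthesis genes Scd1, the stearoyl-CoA desaturase, had the smallest p, with a log2 difference of 1.18 (SE 0.37, adjusted p = 0.51, edgeR), and its groups overlapped. The desaturase gene Fads1 had a difference of 0.35 (SE 0.2). In fed livers the fatty acid synthesis genes had a median of -0.30.

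Genes of fatty acid oxidation gave small or mixed values. The 19 mitochondrial oxidation genes had a median of -0.04 with 17 below 0. Of them 1 (5.26%) was lower without overlap, beside 7.2% of all tested genes. It was Hadhb of the trifunctional protein (-0.27, SE 0.11), while Etfb, an electron transfer subunit, had -0.27 (SE 0.13) with overlap. The list of 19 peroxisomal oxidation genes and PPAR alpha targets had a median of -0.27. Without overlap 4 (21.1%) were lower and 3 (15.8%) higher, beside 7.2% and 6.82% of all tested genes. Ppara itself, the nuclear receptor that drives these genes in fasting, was at 151, 146 and 172 CPM in fasted controls and 217, 225 and 196 CPM in fasted knockouts (0.44, SE 0.13). Its target Cyp4a31, a fatty acid omega-hydroxylase, was at 16.7, 36.8 and 27.5 CPM against 5.66, 8.04 and 14.1 CPM (-1.55, SE 0.44), and the related Cyp4a32 had a difference of -0.84 (SE 0.25). Ehhadh, the peroxisomal bifunctional enzyme, had one of -0.87 (SE 0.29) with overlap. The receptor and these 3 targets thus stood on opposite sides of 0, and adjusted p lay between 0.45 and 0.52 (edgeR). Cyp4a31 and Cyp4a32 are close relatives whose reads may be shared. The PPAR alpha list was lower in fed knockouts as well, with a median of -0.62.

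Cholesterol synthesis and uptake genes had a median of -0.29 in fasted livers, or -0.45 without fasted control replicate 3, and 0.19 in fed livers. Of 25 tested, 21 were below 0, but 0 passed the threshold and 0 were separated without overlap. Srebf2, the transcription factor that drives the pathway, stood at 84.5, 78.7 and 70.1 CPM in fasted controls and at 49.4, 81.4 and 48.7 CPM in fasted knockouts (-0.38, SE 0.17). Msmo1, a sterol methyl oxidase, was at 213, 172 and 139 CPM against 84.1, 189 and 67.0 CPM (-0.62, SE 0.36), and Hsd17b7 had a difference of -0.37 (SE 0.17). In Srebf2 and Msmo1 knockout replicate 2 lay within the control range and replicates 1 and 3 below it.

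Among 15 apolipoprotein and VLDL genes 0 passed the threshold and the median was -0.10. Apob, the structural protein of VLDL, had a log2 difference of 0.42 (SE 0.16) without overlap. Apoc2, the cofactor of lipoprotein lipase, was at 2.03, 2.09 and 2.24 CPM in fasted controls and 0.885, 1.21 and 0.806 CPM in fasted knockouts (-1.12, SE 0.34). Apom, a carrier of sphingosine 1-phosphate, was at 105, 119 and 76.8 CPM against 48.7, 67.5 and 55.2 CPM (-0.81, SE 0.31). Apoc2 and Apoc4 are neighbours on chromosome 7 and both were lower. Apoc2, at no more than 2.24 CPM in the fasted libraries, rests on far fewer counts than Apoc4. Of 15 hepatokine and IGF binding genes, 0 passed and the median was -0.20. Without overlap 3 (20.0%) were lower, beside 7.2% of all tested genes. Igfbp2, a binding protein of insulin-like growth factors, stood at 451, 967 and 613 CPM against 205, 244 and 378 CPM (-1.30, SE 0.55), and Enho, the adropin gene, had a difference of -1.82 (SE 0.77).

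Sex-biased liver genes, which follow the pulses of growth hormone through STAT5, varied widely within groups. The 19 male-biased genes had a median of -0.94 in fasted and 0.61 in fed livers, with 0 past the threshold. Of these 19, 5 were lower and 2 higher without overlap in fasted livers, beside 7.2% and 6.82% of all tested genes. Mup20, a major urinary protein, had a log2 difference of -1.40 (SE 0.52) in fasted livers, or -0.54 without fasted control replicate 3, and 1.08 in fed livers, and the major urinary protein genes are near-identical to each other. Ces2e, a carboxylesterase, was at 178, 166 and 164 CPM in fasted controls and 287, 206 and 253 CPM in fasted knockouts (0.55, SE 0.17). The male-biased median without that library was also -0.54. The 16 female-biased genes had a median of 0.06, or -0.17 without that library. Cyp2a4, a steroid hydroxylase, had a difference of 2.50 (SE 1.0) with overlap. Cux2, a repressor of male-biased genes, was at 5.49, 1.41 and 1.86 CPM in fasted controls and 0.708, 1.35 and 1.27 CPM in fasted knockouts (-1.40, SE 0.48), which became -0.57 without fasted control replicate 1.

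Clock genes had a median of 0.0032 with 0 of 19 past the threshold. Rora, an activator of the clock, stood at 58.6, 68.7 and 60.0 CPM in fasted controls and at 76.3, 82.4 and 92.1 CPM in fasted knockouts (0.42, SE 0.1). Bhlhe40, a repressor in it, was at 107, 129 and 118 CPM against 179, 139 and 151 CPM (0.41, SE 0.11). Bhlhe40 was also separated in fed livers, with a log2 difference of 0.45. Conjugation enzymes had a median of 0.18, and within them Gstp1, a glutathione transferase with a close paralog, was at 367, 301 and 391 CPM in fasted controls and 154, 174 and 257 CPM in fasted knockouts (-0.86, SE 0.21). Gstp1 lay on the other side of 0 in fed livers (0.66), and another glutathione transferase gene, Gstt2, had a fasted difference of -0.56 (SE 0.2).

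Subunits of the respiratory chain that are encoded in the mitochondrion had a median of 0.26, with 11 of 12 above 0, 3 (25.0%) higher without overlap, beside 6.82% of all tested genes, and 0 past the threshold. The 28 nuclear subunits had a median of -0.03. Cytochrome oxidase subunit mt-Co2 stood at 67.3, 125 and 104 CPM in fasted controls and at 255, 130 and 193 CPM in fasted knockouts (0.97, SE 0.24, adjusted p = 0.42, edgeR). That is a small part of the list, whose 12 genes summed to 44951, 60181 and 55177 CPM in fasted controls. In fasted knockouts the sum was 67648, 60994 and 58685 CPM, so the groups overlapped in it. The mt-Co3 gene had a difference of 0.78 (SE 0.3) with overlap, and mt-Nd3 one of 0.41 (SE 0.18). The fed median of the 12 genes was -0.12. Mitochondrial transcripts also move with tissue handling and RNA quality, and the part of these was not tested.

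Of 40 cytosolic ribosomal protein genes tested, 12 were lower and 2 higher without overlap, Rpl29 being 1 of the 2, beside 7.2% and 6.82% of all tested genes. The median was -0.09 in fasted livers, or -0.14 without fasted control replicate 3, and 0.07 in fed livers. The differences were small: Rplp1, of the ribosomal stalk, stood at 209, 215 and 183 CPM in fasted controls and at 166, 160 and 158 CPM in fasted knockouts (-0.32, SE 0.15), and Rpl34 at 62.4, 56.1 and 67.7 CPM against 49.1, 51.9 and 56.0 CPM (-0.25, SE 0.13). Ribosomal protein genes have many processed copies, so their counts are uncertain. Heat shock chaperones had a median of -0.23, with Hspb1 at -0.65 (SE 0.27) and Hspa1b, which has a near-identical partner, at -0.91 (SE 0.4). Of 15 iron genes, Tfrc, the transferrin receptor, had a difference of -0.62 (SE 0.23) and Hamp2, a hepcidin gene, one of 1.97 (SE 0.75), both with overlap. The list median was -0.05, or -0.16 without fasted control replicate 3.

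**Figure D4:**
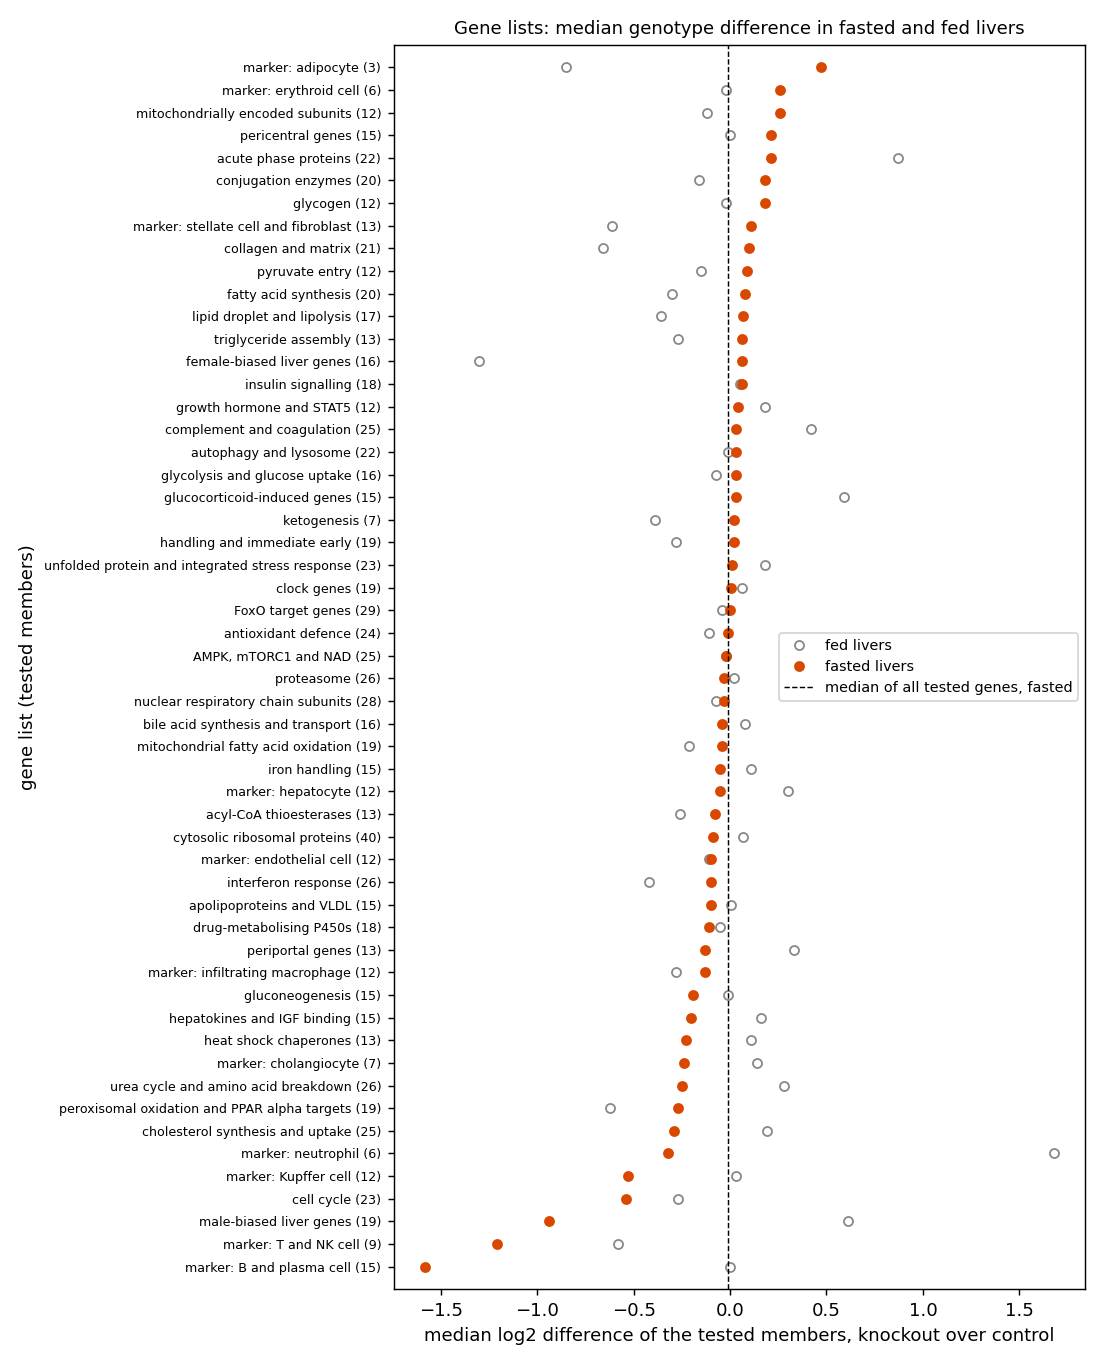
Median log2 difference of knockout over control for each gene list with at least 3 tested members, in fasted livers (filled) and fed livers (open); the number of tested members is in brackets and the dashed line marks the median of all tested genes in fasted livers (-0.01). B and plasma cell, T and NK cell and male-biased genes lie furthest below, at -1.58, -1.21 and -0.94.

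Markers of lymphocytes had the lowest medians of all lists. In bulk tissue, fewer cells of a type and less RNA per cell cannot be told apart. Of 9 tested T and NK cell markers, 0 passed the threshold, 8 were below 0 and 6 (66.7%) were lower without overlap, beside 7.2% of all tested genes, with a median of -1.21 in fasted and -0.58 in fed livers. Their summed level was 10, 15 and 15.2 CPM in fasted controls and 6.63, 4.18 and 6.28 CPM in fasted knockouts, so the groups did not overlap. Fed livers ranged from 4.42 to 29.0 CPM. Single markers were near the limit of the depth: Trac, a T cell receptor constant region, stood at 1.24, 1.30 and 1.43 CPM against 0.575, 0.404 and 0.691 CPM (-1.25, SE 0.62), and Cd4 at 0.791, 0.396 and 1.90 CPM against 0.354, 0.270 and 0.173 CPM (-1.93, SE 0.71). Ccl5, a chemokine of these cells, had a difference of -1.62 (SE 0.78) and the kinase gene Lck one of -1.21 (SE 0.59).

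All 15 tested B and plasma cell markers were below 0, with a median of -1.58 and 0 past the threshold. Without overlap 3 (20.0%) were lower, beside 7.2% of all tested genes. The 15 markers summed to 120, 107 and 1969 CPM in fasted controls and 37.3, 69.7 and 58.0 CPM in fasted knockouts. Fed livers ranged from 121 to 328 CPM. The fasted knockouts were thus below all 9 other libraries, while the size of the difference rested on fasted control replicate 3. Igkc, the antibody kappa constant region, stood at 32.6, 30.2 and 551 CPM in fasted controls and at 6.59, 17.0 and 14.6 CPM in fasted knockouts (-4.01, SE 1.2, adjusted p = 0.51, edgeR). Jchain, which joins antibody chains, stood at 5.24, 5.37 and 199 CPM against 1.42, 4.76 and 2.42 CPM (-4.6, SE 1.4). Cd79a and Iglc2 had differences of -1.51 (SE 0.55) and -1.58 (SE 0.59). Without that library the list median was -0.89, Igkc was at -1.31 and Jchain at -0.89.

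Kupffer cell markers were also all below 0 (12 of 12, median -0.53), with 0 past the threshold and 0 separated. Their sum was 916, 414 and 616 CPM in fasted controls and 371, 466 and 540 CPM in fasted knockouts, and the groups overlapped. C1qa, a complement chain of macrophages, had a difference of -0.63 (SE 0.33) and Timd4, a receptor of resident Kupffer cells, one of -0.96 (SE 0.47). Without fasted control replicate 1, the library with the highest sum, these were -0.21 and -0.45. The 12 markers of infiltrating macrophages had a median of -0.13, with Ly6c2 at -1.53 (SE 0.65). Stellate cell, endothelial and hepatocyte markers had medians of 0.11, -0.10 and -0.05, and of 0.06, -0.29 and -0.15 without fasted control replicate 3. Of 23 cell cycle genes, 3 (13.0%) were lower without overlap, beside 7.2% of all tested genes. The cell cycle median was -0.54, but without fasted control replicate 3 it was 0.15, so the value of -0.54 rests on 1 library. The part that differing immune cell content has in the other differences was not tested.

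**Figure D5:**
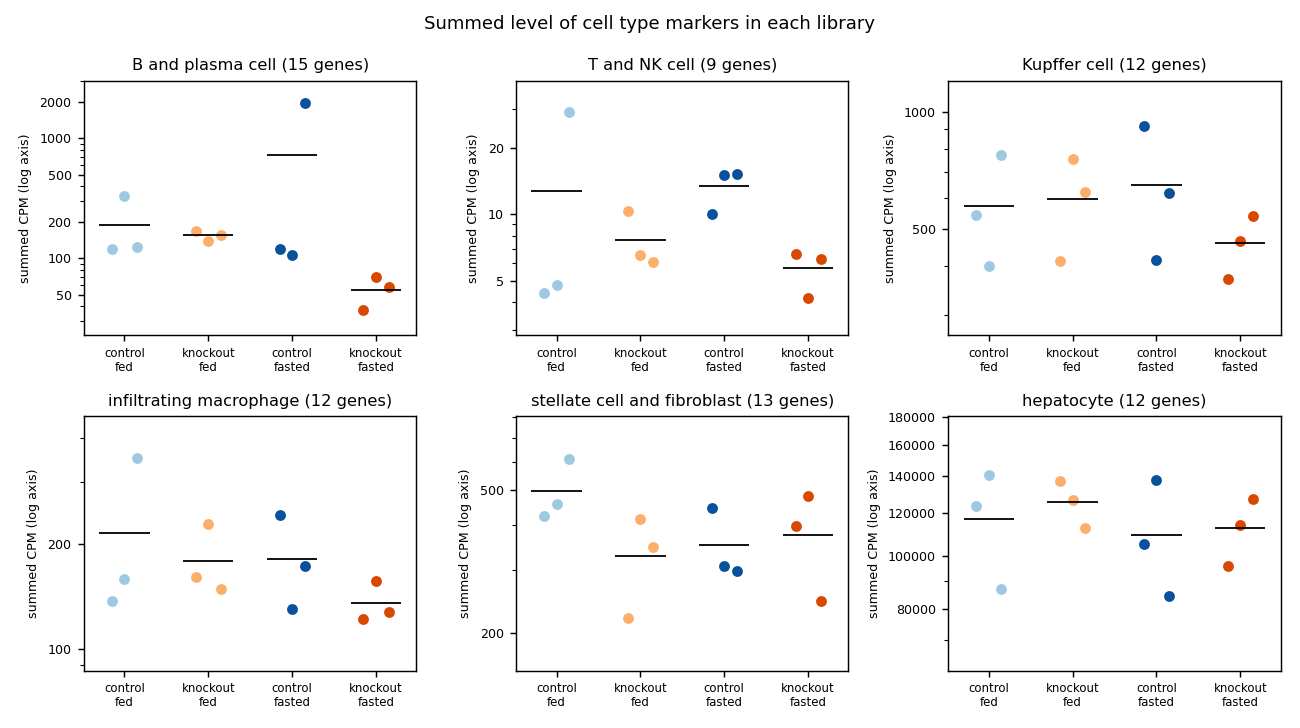
Summed CPM (log axis) of the tested markers of 6 cell types in each of the 12 libraries; points are libraries in replicate order and bars are group means (n = 3). The fasted knockouts are the lowest group for B and plasma cell markers, fasted control replicate 3 reaches 1969 CPM, and hepatocyte markers overlap in all groups.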

How the data were processed

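The submitters' processing notes name featureCounts 1.6.3, HISAT2 2.1.0, Trimmomatic 0.38, DESeq2 1.24.0, bcl2fastq 2.19 and build mm10, with no roles or order. Strand setting, treatment of multi-mapping reads and annotation release were not given in those notes or the labels. Per the labels, the authors deposited raw counts per gene, the unit tested, and TPM over the same genes, used only in an alternative as log2(TPM + 1). Groups come from the sample titles.

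Counts of all 12 libraries entered 1 fit of edgeR 4.0.16 (R 4.3.3) with TMM factors, the filterByExpr filter, robust quasi-likelihood dispersions and a mean per group. Fasted knockout minus fasted control, the same in fed livers and the difference between these (interaction) were the contrasts, all 2-sided. At the totals given, a gene at 1 CPM rests on few counts and carries a large counting error. The code was tested on simulated data. Copies were found with blastn against GENCODE vM21 transcripts.

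Named genes were Foxo3 and its paralogs, the 15 genes per direction described in the text, the 4 members of each list and the 4 genes near Foxo3 with the smallest p, and called genes. Some genes that this rule names are not reported here. The copies, the chromosome 9 window, the promoters shown and list members named only as separated were picked after their values were seen. Members and the 55 lists were chosen with earlier results of these data known. Alternatives were RLE and upper-quartile factors, other filters, DESeq2 1.42.0, limma-voom (limma 3.58.1), log2(TPM + 1), a replicate block, only the compared groups, leaving out each library, and, added later, protein-coding genes only.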

Additional observations from a re-analysis of the deposited data

Results flagged for a closer look

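The genotype difference of Rpl29 differed between feeding states by the interaction test of edgeR. It was 3.98 on the log2 scale in fasted and 0.01 in fed livers (adjusted p of the interaction = 0.00064).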

How the results depend on the processing

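In fasted livers 5 genes passed the threshold. The number was 13 with no filter on low counts, 42 with DESeq2 (all 5 among them), 2 with limma-voom, 3 with limma on log2(TPM + 1), 1 with only the compared groups and 3 with protein-coding genes only, an alternative chosen after seeing the data. Leaving out 1 library gave 1 to 6. Replicate numbers are shared by the titles but nothing ties same-numbered animals: deviations of fasted samples with the same number correlated at -0.0723, -0.284 and -0.137, and not every sample correlated best with its own number. A fit with the replicate number as a block, given for completeness, called 3 genes. In fed livers the number was 0, with 5 under no filter, 33 with DESeq2, 1 with only the compared groups and 0 to 1 with a library left out. The interaction gave 1, with 5 under no filter, 60 with DESeq2 and 1 to 3 with a library left out. The cause of these shifts was not tested.

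Signs turned only in genes far from the threshold. Leaving out 1 library moved Foxo1 between -0.08 and 0.18, Foxo4 between -0.15 and 0.08, Igfbp1 between -0.01 and 0.57 and G6pc between -0.51 and 0.31. G6pc was also -0.09 with limma-voom and -0.07 with limma on log2(TPM + 1). Of the medians of gene lists under other factors or without fasted control replicate 3, only that of cell cycle genes moved beyond the spread between libraries, to 0.15. Counts under about 1 CPM limit what can be seen of lymphocyte markers and of Acpp in controls.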
